A study of Homo sapiens with 6 samples.

Results

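The BCL2 family decides whether a cell opens the outer membrane of its mitochondria, and 10 of its genes are described here, chosen by symbol from the 26485 symbols in the count tables. They are 3 anti-apoptotic genes (BCL2, BCL2L1 and MCL1), 2 effector genes (BAX and BAK1) and 5 genes of BH3-only proteins (BBC3, PMAIP1, BCL2L11, BID and BAD). All 10 were found in the tables and all 10 passed the filter on low counts. The RNA came from AF22, a long-established line of human neural stem cells. In the control group (3 libraries) the cells carried a control short hairpin RNA and are labelled wild type, and in the knockdown group (3 libraries) the stated target was BMI1 together with COMMD3-BMI1, the read-through transcript of BMI1 and its neighbour COMMD3. BMI1 belongs to Polycomb repressive complex 1, which represses genes through chromatin. The labels give no hairpin sequence, no time after delivery of the hairpin and no word on whether the libraries of a group came from separate cultures, so p-values reflect only how these libraries spread, and that spread may be technical.

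Anti-apoptotic BCL2 proteins hold the effectors BAX and BAK1 in check. When released, the effectors form pores in the outer mitochondrial membrane, cytochrome c leaves the mitochondrion, and the APAF1 apoptosome activates caspases. BH3-only proteins respond to stress and either occupy the anti-apoptotic proteins or engage the effectors. Several of their genes are known for control by stress-responsive transcription factors such as FOXO, whereas BID and BAD are known mostly for control by cleavage and phosphorylation of the protein. Neural progenitor cells are known to rely on MCL1 for survival. Read counts per gene do not separate splice forms with opposite actions, such as the long and short forms of BCL2L1 and MCL1, and do not show protein levels.

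Total counts ran from 4962745 to 9640349 per library. BMI1 itself stood at 85.1, 89.96 and 87.4 CPM (counts scaled by library size) in controls 1, 2 and 3 and at 39.9, 21.5 and 26.2 CPM in knockdowns 1, 2 and 3, so its mean level was 33.4% of control. Knockdown library 2 stood apart from the others, at 40.2 on the first principal component, where the other libraries lay between -25.5 and 11.5. Equal library numbers in the 2 groups deviated together, and each result is given from a fit without the number and from a paired fit with it as a block. The neural stem cell markers SOX2, NES and VIM were present in every library (at least 1868 counts), the neuronal marker RBFOX3 and the oligodendrocyte lineage marker SOX10 had 0 counts in all 6, and the astrocyte marker GFAP had 1 count in all. None of the 10 neural stem cell markers passed in either fit. Summed over 9 mesenchymal markers the level was 2120 to 2382 CPM in controls and 2433 to 3021 CPM in knockdowns, with 2 of the 9 higher in the paired fit, and over 7 astrocyte markers it was 548.4 to 592.4 and 603.2 to 658.3 CPM, with 1 of 4 tested higher. Of 6 tested neuronal markers 2 were lower in the paired fit (870.4 to 988.3 CPM in controls and 763.2 to 968.6 in knockdowns over the list of 10). Of all tested genes, 4.63% were called higher and 5.39% lower in the paired fit, and the marker lists are short. The part of these marker changes in the results was not tested. In bulk RNA, a change in the share of a cell type and a change in RNA per cell cannot be told apart.

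None of the 10 genes passed the test in either fit. In edgeR's quasi-likelihood test without the block, with p-values adjusted over all tested genes and a threshold of 0.05, the smallest adjusted p among them was 0.303 and 0 of 10 were called, where 0% of the 12937 tested genes were called. In the paired edgeR fit the smallest was 0.104 and again 0 of 10 were called, where 10% of all tested genes were. The target BMI1 was itself not called without the block (edgeR adjusted p 0.163) and was called with it (paired edgeR adjusted p 0.00836). DESeq2 and limma voom also called 0 of 10 with and without the block; DESeq2 gave no adjusted p for PMAIP1. At an unadjusted p under 0.05, 1 of 10 passed without the block (PMAIP1) and 2 of 10 with it (PMAIP1 and BBC3), where 14.4% and 28.7% of all tested genes did. The paired log2 fold change was above 0 for 8 genes and below 0 for BCL2 and PMAIP1. Its median over the 10 was 0.083, where that of all tested genes was -0.0045. The median size of the change, regardless of direction, was 0.12 for the 10 genes and 0.15 for all tested genes. The groups did not overlap in 1 of 10 genes, where they did not in 20.5% of all tested genes. In 6 of 10 the 3 pairs had the same direction, where 52.3% of all tested genes did; 5 genes were higher in every pair (25.6% of all tested genes) and 1 was lower in every pair (26.7%).

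**Figure D1:**
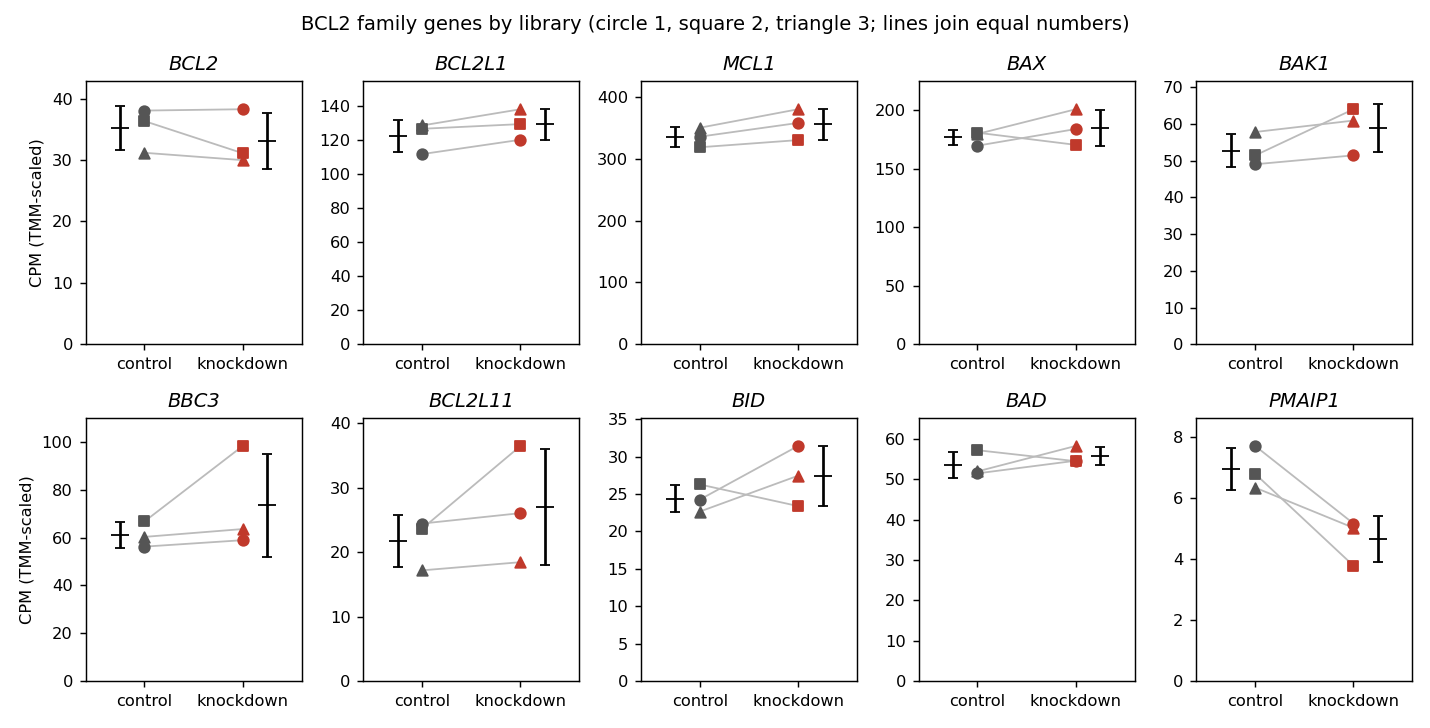
CPM (counts scaled by library size; vertical axes from 0) of the 10 genes in each library, with control in grey and knockdown in red; symbols mark library numbers, grey lines join equal numbers, and bars give the mean ± SD of 3 libraries. Groups overlap in every panel except that of PMAIP1, where all knockdown libraries lie at 5.17 CPM or less and all control libraries at 6.35 CPM or more.

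Sequence from the promoters is shown for PMAIP1, BBC3, BCL2L11 and BMF, whose values are described at most length below, and for BAX, whose entry holds repeated E-boxes. Entries from 250 bases before to 50 after a start site (RefSeq, GRCh38.p14) were matched by symbol for 9 of the 10 genes, which have 15 entries in all. The PMAIP1 stretch runs from base 250 to base 101 before the start site, on the plus strand at chr18:59899746-59899895, and 77.3% of its bases are G or C.
PMAIP1: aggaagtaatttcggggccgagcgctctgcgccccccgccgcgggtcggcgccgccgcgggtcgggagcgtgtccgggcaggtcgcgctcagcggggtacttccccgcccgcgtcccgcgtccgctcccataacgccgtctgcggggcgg

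Motifs searched on both strands of the whole entries included the FOXO motif GTAAACA, the E-box CACGTG and the E2F core. The E2F core was TTCCCGC, or the same with its middle letters changed to TTGGCGC, to the form TTCGCGC, or to the form TTGCCGC. Capitals mark the match in the windows of 28 bases below, each written 5′ to 3′ on the strand of its gene. BCL2L11 is at chr2:111120682-111120709 (plus strand), BMF at chr15:40108953-40108980 (minus), BBC3 at chr19:47232881-47232908 (minus), and the BAX windows are at chr19:48954728-48954755 and chr19:48954773-48954800 (plus). None of these windows overlaps an annotated exon, and that of BCL2L11 lies within the annotated span of its gene.
BCL2L11, FOXO motif: gttactccgGTAAACAcgccagggacgg
BMF, E2F core: gcccgggacTTGGCGCttcactcgccat
BBC3, E-box: gggagatttCACGTGagatatagattac
BAX, E-box at -138: ttggacagtCACGTGacgggaccaaacc
BAX, E-box at -93: aggtgcggtCACGTGacccggcggcgct

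A FOXO match was found in 1 of the 15 entries (BCL2L11), where 3.42% of all 35114 promoter entries hold one. An E-box was found in 4 of the 15 entries, from 3 genes (BAX, BBC3 and BID, with the same BID site in 2 overlapping entries), against 7.26% of all entries. The BAX entry held 4 E-boxes, and 5 of all entries (0.0142%), that of BAX included, held at least 4. An E2F core was found in 1 of the 15 entries (BCL2L1), against 13% of all entries. None of these 3 motifs was found in the PMAIP1 entry. A match is a run of letters and no measured binding site.

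PMAIP1 encodes NOXA, a BH3-only protein that binds MCL1. It lies on chromosome 18 at 59899948 to 59904306 on the plus strand (GRCh38, GENCODE 29), and no exon of another gene overlaps it. Its counts were 42, 44 and 44 in the controls numbered 1, 2 and 3, against 25, 28 and 48 in the knockdowns of the same numbers. Scaled, these are 7.72, 6.80 and 6.35 CPM in control and 5.17, 3.78 and 5.03 CPM in knockdown. Every knockdown library was below every control library, which 11.2% of all tested genes also showed. The mean was 6.96 ± 0.70 CPM in control and 4.66 ± 0.76 CPM in knockdown (SD, n = 3 each). The paired log2 fold change was -0.57 (SE 0.20, 95% interval -1.02 to -0.11, edgeR adjusted p 0.104), with differences of -0.55, -0.80 and -0.32 in pairs 1, 2 and 3. Without the block it was -0.58 (SE 0.22, edgeR adjusted p 0.303). These are low counts: the exact 95% Poisson interval of the lowest, 25, runs from 16.2 to 36.9, and covers counting error only. Without pair 2 the paired value was -0.44 (edgeR adjusted p 0.237).

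The 3 tested genes whose centred log2 CPM lay nearest to that of PMAIP1 over the 6 libraries were ZNF90, MAP9 and ZC3H18. Their root mean square differences from PMAIP1 were 0.041, 0.055 and 0.072 on the log2 scale. ZNF90 is a zinc finger gene, MAP9 encodes a microtubule-associated protein and ZC3H18 a nuclear RNA-binding protein. Their paired log2 fold changes were -0.58, -0.47 and -0.59 (paired edgeR adjusted p 0.0760, 0.0490 and 0.0256), and the call of MAP9 was lost without pair 1 (0.0789). Among the other 9 family genes, BCL2 was nearest to PMAIP1, at 0.27, and BCL2L11 farthest, at 0.58. With 12937 genes and 6 libraries, close profiles are easily found, and nothing follows from them about the genes.

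BBC3 and BCL2L11 had the largest positive changes of the 10, and both rested on pair 2. BBC3 encodes PUMA, a BH3-only protein that binds all anti-apoptotic members. It lies on chromosome 19 at 47220822 to 47232766 on the minus strand. It stood at 56.2, 66.8 and 60.3 CPM in controls 1, 2 and 3 and at 58.9, 98.4 and 63.6 CPM in knockdowns 1, 2 and 3. Knockdown library 2 was the high one, and the other knockdown libraries lay within the control range. The log2 differences were 0.067, 0.56 and 0.076 in pairs 1, 2 and 3. For BBC3 the paired log2 fold change was 0.25 (SE 0.11, edgeR adjusted p 0.167). Without pair 2 it was 0.071 (edgeR adjusted p 0.644).

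BCL2L11 encodes BIM, a BH3-only protein under the control of FOXO factors that can engage BAX directly. It lies on chromosome 2 at 111119378 to 111168447 on the plus strand. It stood at 24.4, 23.6 and 17.2 CPM in controls 1, 2 and 3 and at 26.1, 36.5 and 18.4 CPM in knockdowns 1, 2 and 3. Knockdown library 2 was again the high one, knockdown library 1 lay just above the control range, and knockdown library 3 was near the lowest control. The log2 differences were 0.091, 0.62 and 0.10 in the 3 pairs. For BCL2L11 the paired log2 fold change was 0.30 (SE 0.14, edgeR adjusted p 0.186), and 0.095 (edgeR adjusted p 0.701) without pair 2. Exons of MIR4435-2HG overlap 727 of the 6658 exon bases of BCL2L11 on the opposite strand, and since the strand setting of the counting is not given, part of its reads could come from there. MIR4435-2HG itself differed by 0.57, -0.15 and 0.36 in pairs 1, 2 and 3, and its part in the BCL2L11 values was not tested.

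Pair 2 was the most divergent pair for the transcriptome as well. BMI1 differed by -1.09, -2.05 and -1.73 on the log2 scale in pairs 1, 2 and 3, and its relation to the other differences was not tested. The median size of the log2 difference over all tested genes was 0.14, 0.24 and 0.15 in pairs 1, 2 and 3, and over the 10 family genes 0.092, 0.19 and 0.11. In pair 2, 18% of all tested genes moved further than BBC3 and 14.9% further than BCL2L11. In pair 1 these shares were 72.7% and 64.1%, and in pair 3 they were 72.1% and 64%. The effector gene BAK1 had the same shape, with differences of 0.069, 0.31 and 0.075.

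**Figure D2:**
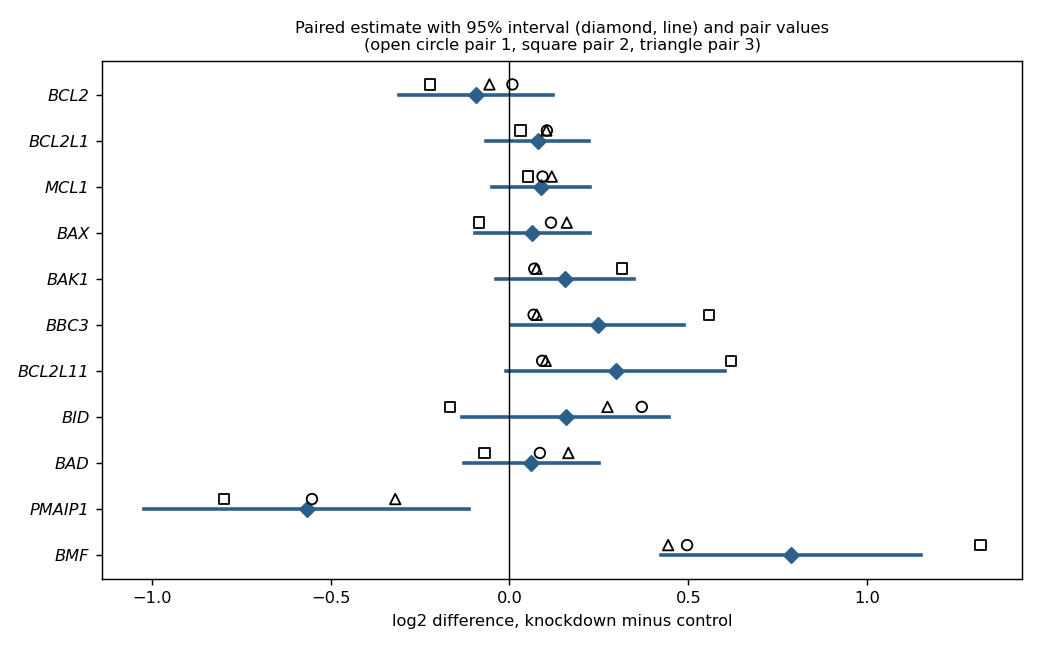
Log2 difference of knockdown minus control for the 10 genes and BMF (horizontal axis); diamonds and lines are the paired edgeR estimate with its 95% interval, and open symbols are the 3 pairs. In BBC3, BCL2L11, BAK1 and BMF the square of pair 2 lies to the right of pairs 1 and 3, and in BCL2, BCL2L1, MCL1, BAX, PMAIP1, BID and BAD it lies to the left of both.

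The other BH3-only genes were BID and BAD. BID, whose protein is cleaved by caspase 8 and so links death receptors to mitochondria, lies on chromosome 22 at 17734138 to 17774770 on the minus strand. It stood at 24.3, 26.3 and 22.7 CPM in controls 1, 2 and 3 and at 31.4, 23.4 and 27.4 CPM in knockdowns 1, 2 and 3. Knockdown libraries 1 and 3 were above all controls, and knockdown library 2 was not. Its paired log2 fold change was 0.16 (SE 0.13, edgeR adjusted p 0.455), with pair differences of 0.37, -0.17 and 0.27. Without pair 2 it was 0.32 (edgeR adjusted p 0.0419), so BID passed in that setting. Only 2 pairs were then left to measure the spread, and 2296 of 12846 tested genes were called. BAD, whose protein is held inactive by phosphorylation, lies on chromosome 11 at 64269830 to 64284704 on the minus strand. It stood at 51.5, 57.2 and 51.9 CPM in controls and at 54.6, 54.5 and 58.3 CPM in knockdowns 1, 2 and 3. The groups overlapped, and the paired log2 fold change of BAD was 0.061 (95% interval -0.13 to 0.25). Exons of GPR137 on the opposite strand overlap 404 of the 1708 exon bases of BAD. GPR137 itself differed by 0.0014, 0.31 and -0.056 in pairs 1, 2 and 3.

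Among the effectors, BAX had a narrow spread. It lies on chromosome 19 at 48954815 to 48961798 on the plus strand. It stood at 169.6, 180.7 and 179.6 CPM in controls 1, 2 and 3 and at 183.8, 170.3 and 200.7 CPM in knockdowns 1, 2 and 3. Knockdown library 2, the high one for BBC3 and BCL2L11, was here the lowest of the knockdown libraries. The paired log2 fold change of BAX was 0.064 (95% interval -0.096 to 0.22, edgeR adjusted p 0.589), an interval that holds 0 and leaves out a change of 0.5 or more in either direction. BAK1 lies on chromosome 6 at 33572547 to 33580293 on the minus strand. It stood at 49.1, 51.5 and 57.9 CPM in controls and at 51.5, 64.1 and 61.0 CPM in knockdowns 1, 2 and 3. Knockdown libraries 2 and 3 were above all controls, and knockdown library 1 lay among them. Its paired log2 fold change was 0.16 (95% interval -0.037 to 0.35, edgeR adjusted p 0.261), and without pair 2 it was 0.072. BAK1 has annotated processed pseudogenes, BAK1P1 and BAK1P2, whose reads could have been shared with it.

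None of the 3 anti-apoptotic genes passed the test. BCL2, the founding member, lies on chromosome 18 at 63123346 to 63320128 on the minus strand. It stood at 38.0, 36.3 and 31.2 CPM in controls 1, 2 and 3 and at 38.3, 31.1 and 30.0 CPM in knockdowns 1, 2 and 3. The groups overlapped, with library 1 the highest in both. The paired log2 fold change of BCL2 was -0.093 (95% interval -0.31 to 0.12, edgeR adjusted p 0.552). BCL2L1, which encodes BCL-XL, lies on chromosome 20 at 31664452 to 31723989 on the minus strand. It stood at 111.7, 126.6 and 128.6 CPM in controls and at 120.1, 129.3 and 138.1 CPM in knockdowns 1, 2 and 3. Each knockdown library was above the control of its number, by 0.10, 0.031 and 0.10 on the log2 scale. For BCL2L1 the paired log2 fold change was 0.079 (95% interval -0.065 to 0.22, edgeR adjusted p 0.446). Exons of ABALON on the opposite strand overlap 1424 of the 3314 exon bases of BCL2L1. ABALON itself had 1 count in knockdown library 1 and 0 in every other library. MCL1, whose protein has a short half-life, lies on chromosome 1 at 150574551 to 150579738 on the minus strand. It stood at 335.7, 318.6 and 350.2 CPM in controls and at 357.9, 330.2 and 380.1 CPM in knockdowns 1, 2 and 3. Its pairs also had a common direction, with differences of 0.092, 0.052 and 0.12. For MCL1 the paired log2 fold change was 0.088 (95% interval -0.050 to 0.23, edgeR adjusted p 0.373).

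Levels between genes were compared per length, as CPM per kilobase of annotated exon. In control libraries MCL1 stood highest, at 76.6 ± 3.62, followed by BAX at 68.3 ± 2.36 and BCL2L1 at 36.9 ± 2.78 (mean ± SD, n = 3). BAD followed at 31.3 ± 1.86, BAK1 at 23.9 ± 2.05 and BBC3 at 19.2 ± 1.67. The lowest were BID at 5.49 ± 0.41, BCL2L11 at 3.27 ± 0.60, PMAIP1 at 3.11 ± 0.31 and BCL2 at 2.99 ± 0.30. Ranges over all 6 libraries were compared between neighbours in this order. They overlapped for MCL1 and BAX, for BCL2L1 and BAD, for BAK1 and BBC3, and at each step from BID to BCL2. They did not overlap for BAX and BCL2L1, BAD and BAK1, or BBC3 and BID. Genes further apart could differ from this: BBC3 (17.7 to 30.9) overlapped BAD (30.1 to 34.1), and BID (from 5.09) did not overlap PMAIP1 (up to 3.45). The order depends on the length used: with the longest annotated transcript BAX came first, at 130.1, ahead of MCL1 at 85.2, and PMAIP1 last, at 3.57, below BCL2 at 4.71. Among the anti-apoptotic genes, MCL1 and BCL2L1 were thus far above BCL2 with either length.

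**Figure D3:**
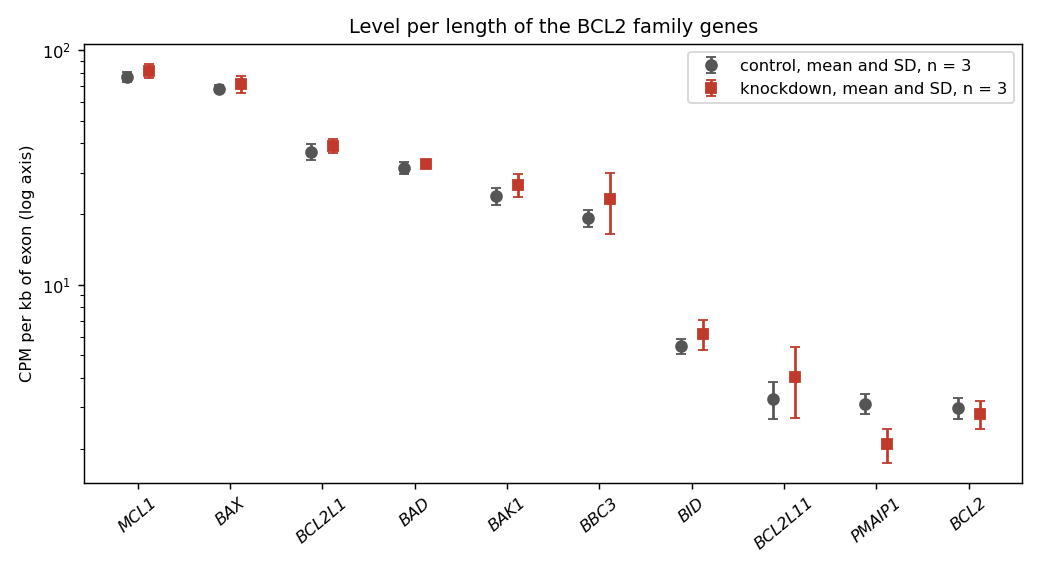
Level per length (CPM per kilobase of the union of annotated exons, log axis) of the 10 genes in control (grey circles) and knockdown (red squares), with mean ± SD of 3 libraries, in order of the control mean. MCL1 and BAX stand highest and BCL2L11, PMAIP1 and BCL2 lowest, near 3 CPM per kilobase in control.

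Log2 ratios of opposing or binding partners were taken within each library, as a description with no test. The ratio of BAX to BCL2 was 2.16, 2.31 and 2.53 in controls 1, 2 and 3 and 2.26, 2.45 and 2.74 in knockdowns 1, 2 and 3. It was thus higher in each pair, by 0.11, 0.14 and 0.22, while the groups overlapped. The ratio of BAX to BCL2L1 differed by -0.016 between the group means and that of BAX to MCL1 by -0.024, each less than the SD of the controls (0.062 and 0.091). The ratio of PMAIP1 to MCL1 was -5.44, -5.55 and -5.79 in controls and -6.11, -6.45 and -6.24 in knockdowns 1, 2 and 3. It was the only one of the 7 ratios whose groups did not overlap, and its means differed by -0.67. The ratios of BBC3 to BCL2L1 and of BCL2L11 to MCL1 differed by 0.15 and 0.19 between the means, with 0.53 and 0.57 in pair 2 and -0.037 to -0.00013 in pairs 1 and 3. The ratio of BAK1 to MCL1 differed by 0.066.

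The rest of the pathway was read from 7 lists of 77 genes, of which 63 passed the filter on low counts. In edgeR's test without the block 0 of these 63 were called. In the paired edgeR fit 7 were called (11.1%, where 10% of all tested genes were), 5 of them higher in knockdown (4.63% of all tested genes were) and 2 lower (5.39%). The share is near that of all genes. The median paired log2 fold change over the 63 was 0.026.

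Of 10 tested genes among the other BCL2 family members, only BMF passed. BMF encodes a BH3-only protein that is known to be bound to the actin-based motor complex of healthy cells and to be released in cells that lose attachment, and it lies on chromosome 15 at 40087890 to 40108892 on the minus strand. It stood at 33.6, 42.4 and 39.7 CPM in controls 1, 2 and 3 and at 47.6, 106.0 and 54.1 CPM in knockdowns 1, 2 and 3. Every knockdown library was above every control library, and knockdown library 2 was by far the highest. Groups did not overlap, in either direction, in 20.5% of all tested genes. BMF rose in the paired fit by 0.79 on the log2 scale (SE 0.16, 95% interval 0.42 to 1.15, edgeR adjusted p 0.0274), with differences of 0.50, 1.32 and 0.44 in the 3 pairs. Without the block its edgeR adjusted p was 0.267. Without pair 2 the paired value was 0.47 (edgeR adjusted p 3.5e-05), so the size was smaller and the call held. As for BID, only 2 pairs were then left to measure the spread, and 2296 of 12846 tested genes were called. That p-value is therefore not comparable with the one from all 3 pairs. In pair 2, 1.76% of tested genes moved further than BMF, in pair 1 7.75% and in pair 3 11.3%. Exons of BMF-AS1 on the opposite strand overlap 461 of the 5447 exon bases of BMF. The anti-apoptotic gene BCL2L2 was at a paired log2 fold change of -0.0020 and the effector-like gene BOK at 0.0025 (SE 0.085 each). BCL2A1 had 0 counts in all 6 libraries, and HRK, BCL2L10, BCL2L14 and BCL2L15 were too low to test.

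Downstream of the mitochondrion, none of the 14 tested genes of the apoptosome and caspase list passed in either fit. Of 5 tested inhibitor of apoptosis genes 2 were called in the paired fit, where 10% of all tested genes were. BIRC2, which encodes a ubiquitin ligase of the TNF receptor complex, rose by 0.27 (SE 0.064, paired edgeR adjusted p 0.0361). BIRC5, which encodes survivin, a protein of the mitotic chromosomal passenger complex, fell by 0.66 on the log2 scale (SE 0.14, paired edgeR adjusted p 0.0303). Its pairs differed by -0.18, -1.11 and -0.71, so its smallest difference was in pair 1. In the death receptor list, 2 of 7 tested genes were called in the paired fit, both higher, where 4.63% of all tested genes were called higher. TNFRSF10B, the TRAIL receptor DR5, stood at 453.5, 463.4 and 446.8 CPM in controls and at 576.1, 735.5 and 620.4 CPM in knockdowns 1, 2 and 3. It rose by 0.50 (SE 0.076, paired edgeR adjusted p 0.0222). Its groups did not overlap, which held, in either direction, for 20.5% of all tested genes. TNFRSF10D, a decoy TRAIL receptor, rose by 0.32 (SE 0.075, paired edgeR adjusted p 0.0357), and its groups overlapped. The calls of BIRC2 and TNFRSF10D were lost without pair 1 (paired edgeR adjusted p 0.0885 and 0.0620) and without pair 3 (0.252 and 0.0617).

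None of the 8 genes of mitochondrial partners passed, the BAK1-binding channel VDAC2 among them. A list for turnover or binding of BCL2 family proteins held 10 genes. Of these, FBXW7, which encodes a ubiquitin ligase subunit known to target MCL1, rose by 0.42 (SE 0.10, paired edgeR adjusted p 0.0407). It was at 53.1, 63.5 and 58.6 CPM in controls and at 66.6, 104.2 and 67.4 CPM in knockdowns 1, 2 and 3. Its groups did not overlap, as those of 20.5% of all tested genes did not in either direction. Without pair 2 the paired value of FBXW7 was 0.25. Of 9 tested genes, transcriptional inducers of BH3-only genes plus the p53 regulator MDM2, only E2F1, a cell cycle transcription factor, passed. It fell by 0.80 on the log2 scale (SE 0.15, paired edgeR adjusted p 0.0256), from 90.3 ± 8.28 to 53.6 ± 18.9 CPM (n = 3 each). FOXO3 was at a paired log2 fold change of 0.066. FOXO1 had differences of 0.096, 0.58 and 0.066 in pairs 1, 2 and 3, and did not pass (0.25); it was singled out after its values were seen.

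**Figure D4:**
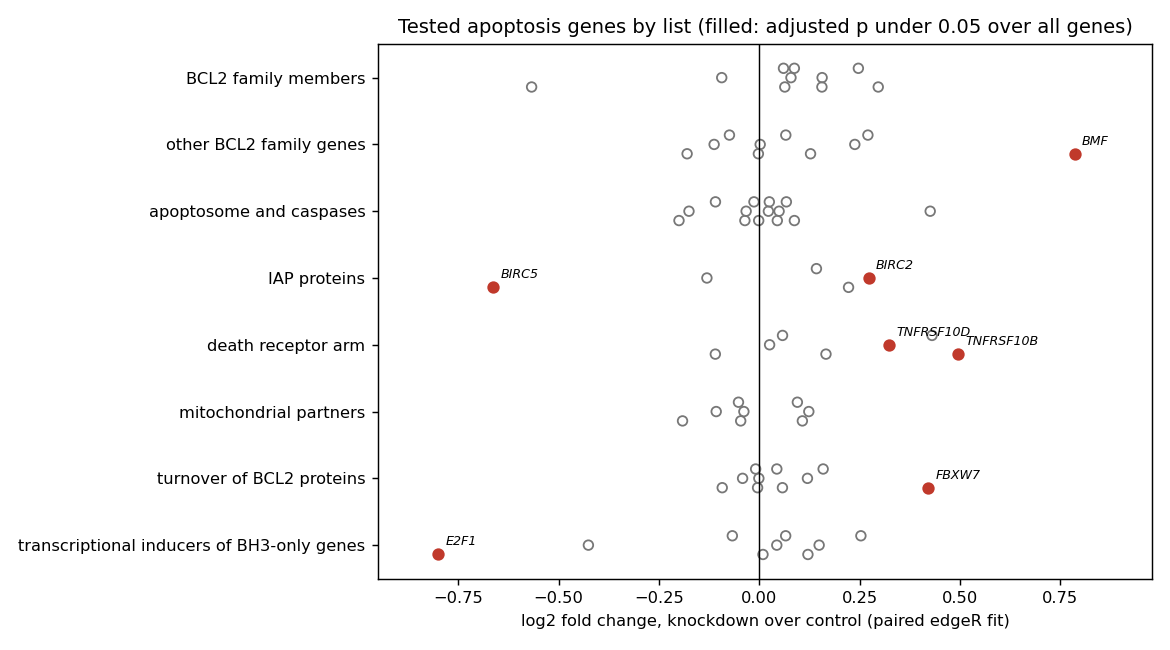
Paired edgeR log2 fold change (horizontal axis) of each tested gene of the BCL2 family and of the 7 other apoptosis lists; filled red points have an adjusted p under 0.05 over all genes tested and are named, open points do not. No point of the 10 family genes is filled, and the 7 filled points are BMF, BIRC2, BIRC5, TNFRSF10B, TNFRSF10D, FBXW7 and E2F1.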

How the data were processed

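RNA libraries were directional, per the labels' protocols. The deposited tables hold whole-number read counts per gene symbol, raw as judged from their values. Per the submitters' processing notes, STAR 2.7.10a, Trim Galore 0.6.6 and bedtools were used with the build hg38; which program counted the reads, on what annotation and with what strand setting, is not given in the sources used here. Libraries were grouped by title. Differences were tested with edgeR 4.0.16 under R 4.3.3 (filterByExpr, TMM, quasi-likelihood test), with p-values adjusted by Benjamini-Hochberg over 12937 tested genes at 0.05. CPM uses TMM-scaled totals, and log2 values a prior count of 2. The SE is the log2 fold change over the square root of F, and the 95% interval uses the test's degrees of freedom. Libraries of equal number deviated alike from their group means, with correlations of 0.563, 0.467 and 0.535 over the tested genes, each above 0.1, and were treated as pairs; this comes from the data, not the labels. Replicates of a group differed by more than sampling noise (chi-square per gene at least 3.19), and control 1 and knockdown 1 differed less, at 2.74. Positions and lengths are from GENCODE 29 (GRCh38). The genes, lists and tests were chosen with earlier results of these data known. Named were the 10 family genes, BMI1, called members of each list (up to 4 by smallest paired p) and the 3 genes nearest to the member of smallest paired p; others named are background or were chosen after their values were seen. The value of 1 listed gene and the search for 1 further motif are not reported here. Both fits were run on simulated counts and checked for calls of the wrong sign. Recovery of changes was checked for the paired fit only. Alternatives were other scalings, filters, DESeq2 1.42.0, limma 3.58.1 voom, the block and leaving out libraries or pairs.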

Additional observations from a re-analysis of the deposited data

How the results depend on the processing

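The log2 fold changes of the 10 family genes kept their sign in both fits under every scaling, filter, tool and left-out library or pair tried. No member was called without the block under any of these. With it, BID was called without pair 2, so the paired count ran from 0 to 1 with a pair left out. The replicate block changed no member's call; it took the calls over all genes from 0 to 1296 and those in the other apoptosis lists from 0 to 7. Without the block, all genes called were 2 with no filter on low counts, 142 in DESeq2 and 0 to 665 with a library left out, and list genes called were 1 in DESeq2 (TNFRSF10B) and 0 to 4 with a library left out, in each case the most without knockdown library 1. With the block, all genes called were 2171 with no filter, 590 in DESeq2 and 912 to 2296 with a pair left out, and list genes called were 11, 4 and 5 to 11. Total count scaling moved the paired calls from 599 higher and 697 lower to 494 and 789. The call of FBXW7 was lost in paired DESeq2 (adjusted p 0.0788), as were those of BIRC2 (0.187), TNFRSF10D (0.133) and MAP9 (0.165); MAP9 also lost it without pair 1 (edgeR adjusted p 0.0789). With the longest transcript as length, control levels in CPM per kilobase were 85.2 for MCL1, 130.1 for BAX, 46.9 for BCL2L1, 46.3 for BAD, 33.2 for BBC3, 9.78 for BID, 4.16 for BCL2L11, 3.57 for PMAIP1 and 4.71 for BCL2. With a pair left out, the difference in log2 ratio ran from 0.12 to 0.18 for BAX to BCL2, -0.053 to 0.034 for BAX to BCL2L1, -0.057 to 0.033 for BAX to MCL1, -0.033 to 0.12 for BAK1 to MCL1, -0.032 to 0.25 for BBC3 to BCL2L1, -0.78 to -0.56 for PMAIP1 to MCL1 and -0.0078 to 0.29 for BCL2L11 to MCL1. PMAIP1, with 25 to 48 counts per library, is the member most limited by depth.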
